A study of Mus musculus with 6 samples.

Results

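Genes whose products bind actin or build the actin cytoskeleton were followed between embryonic day 15 (E15) and adulthood in mouse choroid plexus of the lateral ventricles, the frond of epithelium, vessels and stroma that secretes cerebrospinal fluid. They were chosen by annotation: a transcript cluster, the set of exon probe sets that together measure 1 gene, was included when its molecular function text contained "actin binding", its cellular component text contained "actin cytoskeleton", or its symbol began with Myo and a digit or with Myh. Clusters annotated to the cell cycle, cell adhesion, the synapse or the cilium were left out. The rule gave 70 clusters for 69 gene symbols, among 3956 clusters held in the deposited tables. Of the 70, 65 were found by function, 13 by component and 10 by symbol, some in several of these ways. The exclusion terms removed a further 19 clusters. Expression was measured on Affymetrix Mouse Exon 1.0 ST arrays in Swiss Webster mice, with RNA from 3 pools of 30 E15 pups of mixed sex and from 3 pools of 10 healthy adult females, and 1 pool on each array, as the labels give it. The age of the adults is 10 weeks in the methods and over 3 months in the supplementary description, where the pool sizes also differ from those in the labels. The labels give no treatment and no engineered allele for either age. Age and the sex of the animals cannot be told apart in this design, because no adult male was measured.

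Actin filaments grow at a fast, barbed end and shrink at a slow, pointed end. Nucleators such as the formins, the spire proteins and the Arp2/3 complex start filaments, capping and severing proteins such as tropomodulin, gelsolin and cofilin set their length, and fascin, plastin and alpha-actinin tie them into bundles or networks. Myosins pull on filaments or carry cargo along them, tropomyosins and calponins coat them, and spectrin, protein 4.1, plectin and the nesprins join them to membranes, intermediate filaments and the nucleus. In an epithelium such as that of the choroid plexus these proteins form the core of the apical microvilli and the belt at the cell junctions. Smooth muscle of vessels, stromal cells, endothelium, blood cells and nerve endings carry the same families, often through other paralogues.

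The tables deposited by the authors and used here hold 1 merged log2 value for each age and cluster, in place of the values of the 3 arrays. Both values are centred near 0 within a cluster. They show how the ages differ and give no level, so that genes cannot be ranked by abundance and no replicate spread, error or test accompanies any value. Differences below are written as adult minus E15 on the log2 scale, and a fold is 2 raised to the size of that difference. The gene-level table holds 1805 clusters that had already passed the corrected p and 2-fold thresholds of the methods. The splicing index table adds 2151 clusters, kept for their exon pattern, and most of these lie below 2-fold. Actin genes absent from both tables were left unanalysed. The RNA was that of whole plexus, so that fewer cells of a type and less RNA per cell cannot be told apart.

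Among the actin genes, 18 were at least 2-fold higher in adult and 15 at least 2-fold higher at E15. These are 25.7% and 21.4% of the 70, beside 22.9% and 24.4% of all 3956 clusters. In either direction they were 33, or 47.1%, beside 47.3%, so that the share past 2-fold was close to that of the tables as a whole. At 1.5-fold the actin genes were 26 toward adult (37.1%, beside 31.5% of all clusters) and 18 toward E15 (25.7%, beside 36.8%), and together 62.9%, beside 68.3%. All 33 were in the gene-level table, and the other 37 were in the splicing index table only, with differences from -0.997 to 0.92. The median difference was 0.27, against -0.16 over all clusters, and 43 of the 70 had the higher value in adult, as had 1815 of the 3956. Centring each age on the table median adds 0.15 to every difference, which takes *Myo16* and *Fhod3* below 2-fold toward E15, brings *Fscn2*, *Hook1*, *4831426I19Rik* and the shared *Plec1* cluster past 2-fold toward adult, and turns the sign of *Cfl2* and *Nrap*. As deposited, the middle of the distribution lay to the adult side of that of all clusters, and beyond 2-fold the gap was smaller and ran the same way. The largest differences were those of *Fscn1*, 11.1-fold higher at E15, and *Tmod1*, 8.36-fold higher in adult. At a 4-fold threshold 4 genes were higher in adult, namely *Tmod1*, *Myo5c*, *Tns1* and *Myo1d* (5.71%, beside 5.03% of all clusters), and 3 were higher at E15, among them *Fscn1* and *Cnn2* (4.29%, beside 5.84%).

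**Figure D1:**
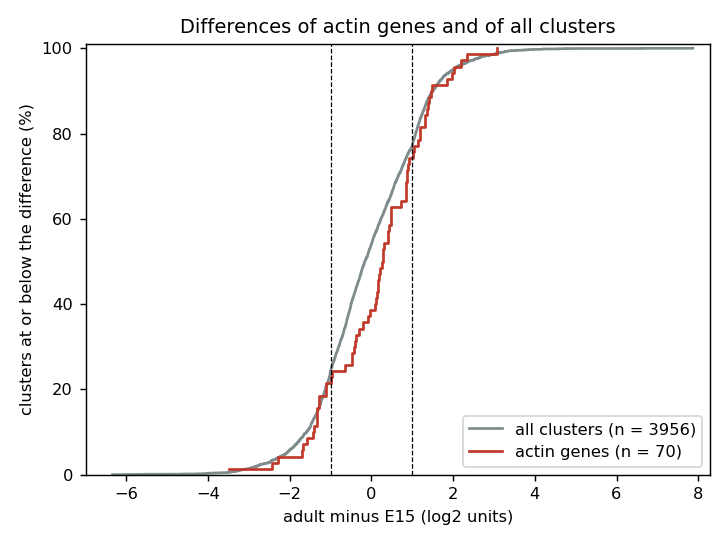
Cumulative share of clusters (%, vertical axis) against the difference adult minus E15 (log2 units, horizontal axis) for the 70 actin genes and for all 3956 clusters; dashed lines mark 2-fold. The actin genes run to the right of all clusters between the dashed lines, with medians of 0.27 and -0.16, and lie closer to them outside.

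The promoters of the genes at the ends of this range are shown because they differ between the ages most. Each line gives the 250 bases before the RefSeq start, 5′ to 3′ on the coding strand in build GRCm38.p6, with capitals at matches to the motifs searched on both strands: the CArG box, which is the binding element of serum response factor, a known regulator of actin genes, TATAAA, which is the core of the TATA box, and CATTCC, which is the core of the TEAD factor element. *Fscn1* and *Cnn2* were higher at E15, and *Tmod1* and *Myo5c* in adult.
Fscn1 (chr5:142960105-142960354, plus strand): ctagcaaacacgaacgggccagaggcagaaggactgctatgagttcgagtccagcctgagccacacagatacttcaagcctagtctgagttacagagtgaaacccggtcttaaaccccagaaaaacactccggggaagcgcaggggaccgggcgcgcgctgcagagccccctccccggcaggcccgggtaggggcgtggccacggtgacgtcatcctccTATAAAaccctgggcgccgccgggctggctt
Cnn2 (chr10:79988350-79988599, plus strand): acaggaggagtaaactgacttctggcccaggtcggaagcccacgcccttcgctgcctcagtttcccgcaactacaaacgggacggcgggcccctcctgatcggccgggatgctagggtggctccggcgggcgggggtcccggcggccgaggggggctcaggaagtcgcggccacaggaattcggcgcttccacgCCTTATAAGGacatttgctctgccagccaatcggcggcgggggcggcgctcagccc
Tmod1 (chr4:46038972-46039221, plus strand): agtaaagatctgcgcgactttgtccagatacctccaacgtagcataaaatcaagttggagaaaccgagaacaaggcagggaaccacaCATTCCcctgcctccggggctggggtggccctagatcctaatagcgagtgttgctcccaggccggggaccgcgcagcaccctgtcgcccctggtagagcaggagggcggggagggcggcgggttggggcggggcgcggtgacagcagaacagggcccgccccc
Myo5c (chr9:75231764-75232013, plus strand): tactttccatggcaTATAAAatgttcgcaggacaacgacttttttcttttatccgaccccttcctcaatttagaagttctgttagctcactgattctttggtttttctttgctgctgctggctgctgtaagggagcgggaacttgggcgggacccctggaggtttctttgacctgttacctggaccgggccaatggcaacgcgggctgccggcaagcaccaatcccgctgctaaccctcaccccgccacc

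In these windows and counted from the start, the CArG box of *Cnn2* began at position -56, the TATAAA of *Fscn1* at -31, that of *Myo5c* at -236 and the CATTCC of *Tmod1* at -163. RefSeq held 88 promoters for 55 of the 69 actin genes. A CArG box was found in 1 of the 88, that of *Cnn2*, or 1.14%, beside 1.47% of all 32851 promoters. TATAAA was found in 8 (9.09%, against 12.4%) and CATTCC in 20 (22.7%, against 12.6%). Several of the 20 belong to the same gene, as in *Pls3* and *Inf2*, so that promoters are not independent. By gene, CATTCC was found in 5 of 14 actin genes higher in adult, 5 of 13 higher at E15 and 5 of 28 below 2-fold, beside 14.4% of all 27025 genes with a promoter. The median GC content was 65.8% for the genes higher in adult, 62.4% for those higher at E15, and 59.2% for those below 2-fold, beside 52.4% over all genes. Over promoters in place of genes it was 60.4% for the actin genes and 55.6% for coding genes. A match is a run of letters and was not tested as a binding site.

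Of the 33 genes past 2-fold, 32 are plotted with both of their values.

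**Figure D2:**
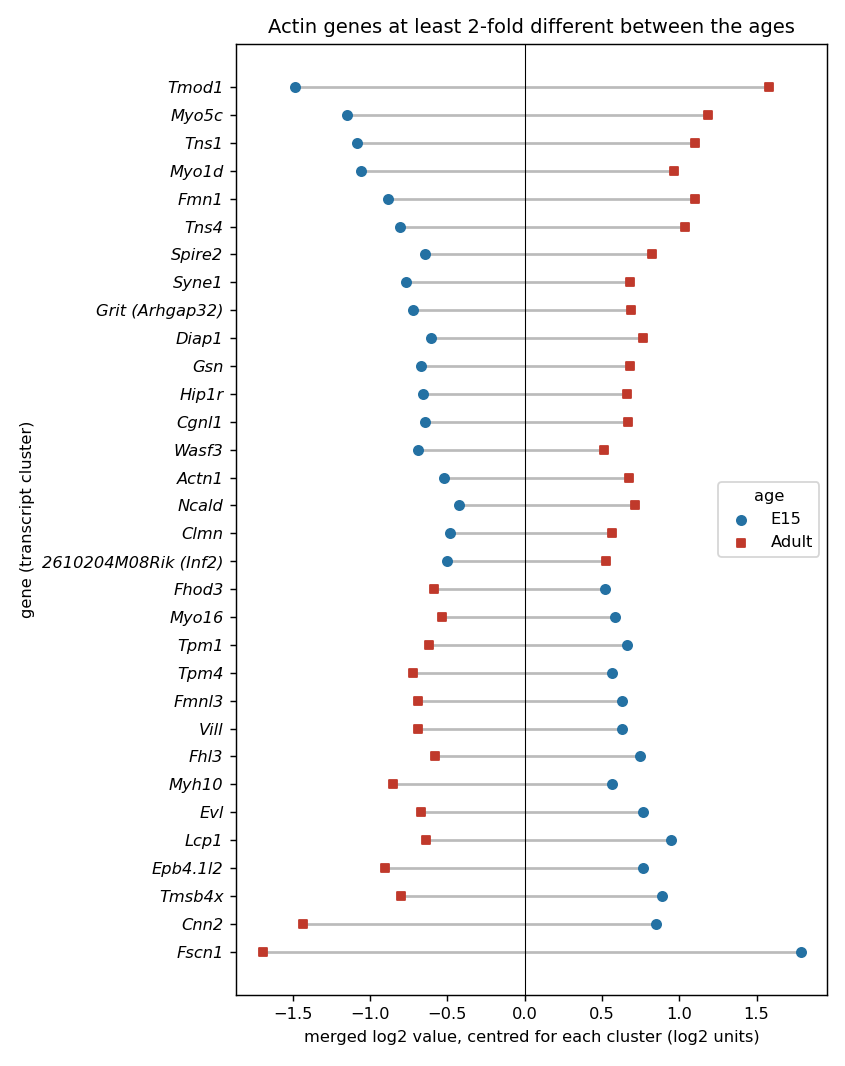
Merged log2 values (horizontal axis, centred for each cluster) at E15 (circles) and in adult (squares) for 32 of the 33 actin genes at least 2-fold different, 1 gene per row, ordered by the difference. The grey bar is the difference, which runs from 3.06 for Tmod1 at the top to -3.48 for Fscn1 at the bottom; no error bar is drawn since each value is a single merged number.

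The rule kept 10 clusters of myosin heavy chains, and they did not share a direction. At least 2-fold higher in adult were 2 (20%, beside 22.9% of all clusters), at E15 3 (30%, beside 24.4%), and 5 lay below 2-fold. The exclusion terms had removed *Myo7a* (1.24), *Myo6* (0.36) and *Myh9* (-0.68). *Myo5c*, a vesicle motor of secretory and other epithelia, had an adult value of 1.19 and an E15 value of -1.15. This difference of 2.34, a fold of 5.06, was the highest toward adult among the myosins. *Myo1d*, a single-headed motor that links membrane to actin, followed with 0.97 in adult and -1.05 at E15, a fold of 4.06. *Myh10*, the heavy chain of nonmuscle myosin IIB, which drives contraction of the cell cortex, had -0.85 in adult and 0.56 at E15, a fold of 2.67. *Myo16*, a motor with ankyrin repeats best known from neurons, had -0.53 and 0.58, a fold of 2.17 that falls below 2 after centring (-0.97).

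The 5 myosins below 2-fold that the rule kept all had the higher value in adult. Of those removed by the exclusion terms and below 2-fold, *Myo6* was also higher in adult (0.36) and *Myh9* higher at E15 (-0.68). *Myo5a*, the class V motor of melanosomes and synaptic vesicles, differed by 0.85, a fold of 1.80. RefSeq places *Myo5a* and *Myo5c* next to each other, with 0 coding genes between them, and both differences were positive. *Myo5b*, the class V motor of recycling endosomes, differed by only 0.13. *Myh11*, the heavy chain of smooth muscle, had 0.58 in adult and -0.26 at E15, a difference of 0.84. *Myo19*, a motor of mitochondria, differed by 0.47. A cluster shared by the cardiac chains *Myh7* and *Myh6* differed by 0.43 and cannot be assigned to either gene.

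Nucleators and their activators were 11 clusters, with a median difference of 0.85. Of these, 5 were at least 2-fold higher in adult (45.5%, beside 22.9% of all clusters) and 2 at E15 (18.2%, beside 24.4%). *Fmn1*, a formin of adherens junctions, had 1.10 in adult and -0.88 at E15, a fold of 3.95. *Spire2*, which nucleates filaments together with formins and serves vesicle transport, had 0.83 and -0.65, a fold of 2.77. *Diap1* (*Diaph1* in RefSeq), a formin that also acts on microtubules, had 0.77 and -0.61, a fold of 2.59. These genes were followed by *Wasf3*, an activator of the Arp2/3 complex, with a fold of 2.30, and by the cluster *2610204M08Rik*, which RefSeq names *Inf2*, a formin that also severs filaments, with a fold of 2.04 at the edge of the threshold.

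The nucleators at least 2-fold higher at E15 were formins too. *Fmnl3*, a formin of filopodia and of growing vessels, had -0.69 in adult and 0.63 at E15, a fold of 2.50. *Fhod3*, a formin of the sarcomere, had -0.59 and 0.52, a fold of 2.16 that falls below 2 after centring (-0.96). *Diap3* (*Diaph3*) lay just below the threshold, with a difference of -0.96. *Daam2*, a formin of the Wnt pathway, differed by -0.39. Of the 7 formins held, 3 were thus past 2-fold toward adult and 2 toward E15, beside 22.9% and 24.4% of all clusters. The other 2 had the higher value at E15. The remaining nucleators were *Arpc3*, a subunit of the Arp2/3 complex, with a difference of -0.38, and *Whdc1* (*Whamm*), an activator of that complex at Golgi membranes, with 0.84.

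Bundling and cross-linking proteins were 7 clusters. Of these, 3 were at least 2-fold higher at E15 (42.9%, beside 24.4% of all clusters) and 1 in adult (14.3%, beside 22.9%). *Fscn1*, the fascin that packs filaments of filopodia, had -1.69 in adult and 1.78 at E15, the widest gap of all 70 genes. Its paralogue *Fscn2*, known from photoreceptors and hair cells, went the other way with 0.39 and -0.48, a fold of 1.82. *Lcp1*, the plastin of leukocytes, had -0.63 in adult and 0.95 at E15, a fold of 2.99. *Pls3*, the plastin of other cells, had a difference of 0.26. *Vill*, a relative of the microvillar protein villin, had -0.69 and 0.63, a fold of 2.50 toward E15. *Actn1*, a nonmuscle alpha-actinin of stress fibres and adhesion sites, was higher in adult with 0.68 and -0.52, a fold of 2.29, while the fast muscle form *Actn3* differed by 0.11. In both the fascins and the plastins 1 paralogue was past 2-fold toward E15 and the other had the higher value in adult.

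**Figure D3:**
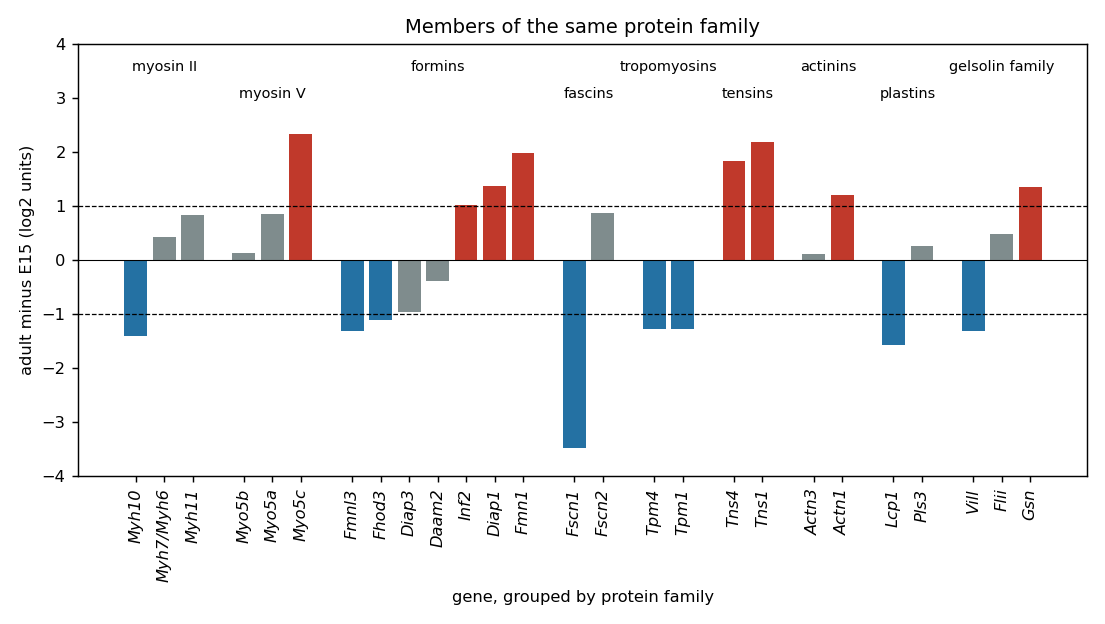
Difference adult minus E15 (log2 units, vertical axis; dashed lines at 2-fold) for actin genes grouped by protein family, with red for at least 2-fold higher in adult, blue for at least 2-fold higher at E15 and grey for less. The bars point both ways within class II myosins, formins (Fmnl3 -1.32, Fmn1 1.98), fascins, plastins and the gelsolin family, and 1 way in class V myosins, tropomyosins, tensins and actinins.

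The thin filament list held 6 clusters: a calponin and tropomyosins, which coat the filament, and *Lsp1*, *AA536749* and *Nrap*, which bind or anchor it otherwise. All 6 had the higher value at E15 as deposited, as had 2141 of all 3956 clusters, with a median difference of -1.14. After centring, when *Nrap* turns, it was 5 of 6. The list was written with earlier results of these data known. *Cnn2*, the calponin of nonmuscle cells, had -1.43 in adult and 0.85 at E15, a fold of 4.85. *Tpm4* and *Tpm1*, tropomyosins that stabilise filaments and gate myosin binding, had nearly the same difference, -1.29 and -1.28, with adult values of -0.72 and -0.62. *Lsp1*, an F-actin binding protein of leukocytes, was the gene nearest the threshold, with a difference of -0.997 that did not reach 2-fold. *AA536749* (*Mprip*), which targets myosin phosphatase to stress fibres, differed by -0.30, and *Nrap*, an anchoring protein of muscle, by -0.03 (0.12 after centring), the smallest difference of all 70.

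Proteins that cap, sever or hold back actin were 9 clusters. Of these, 2 were at least 2-fold higher in adult (22.2%, beside 22.9% of all clusters) and 1 at E15 (11.1%, beside 24.4%). *Tmod1*, which caps the pointed end and stabilises filaments of red cell membranes, muscle and epithelial cortex, had 1.58 in adult and -1.48 at E15. *Gsn*, the calcium-dependent severing protein gelsolin, had 0.68 and -0.67, a fold of 2.55. *Tmsb4x*, thymosin beta 4, which sequesters actin monomers, had -0.80 in adult and 0.89 at E15, a fold of 3.23. The others lay below 2-fold on both sides of 0: the cofilin *Cfl2* at -0.08 (0.07 after centring), its cofactor *Wdr1* at 0.28, the gelsolin relative *Flii* at 0.48, the twinfilin *Twf2* at -0.43, the LIM protein *Ablim1* at 0.08 and the drebrin *Dbn1*, known from dendritic spines, at -0.63.

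Links between actin and membranes, junctions, intermediate filaments or the nucleus were the largest role, with 14 clusters. Of these, 4 were at least 2-fold higher in adult (28.6%, beside 22.9% of all clusters) and 1 at E15 (7.14%, beside 24.4%). The higher value was that of the adult in 11 of the 14, as in 1815 of all 3956 clusters. *Syne1*, the nesprin that ties actin to the nuclear envelope, is held as separate clusters with differences of 1.45 and 0.72, which point the same way and differ by more than 1.5 times in fold. *Hip1r*, which joins clathrin coats to actin, and *Cgnl1*, the junction plaque protein paracingulin, had almost equal folds of 2.50 and 2.49. The paper describes cingulin-like 1 as unchanged in development, whereas its deposited values differ by that 2.49-fold toward adult. *Clmn*, a transmembrane protein with calponin-like domains, had a fold of 2.06. The exception past 2-fold was *Epb4.1l2*, the widely expressed relative of erythrocyte protein 4.1, with -0.90 in adult and 0.76 at E15, a fold of 3.17 toward E15.

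The spectrin scaffold itself differed little. The beta chains *Spnb2*, *Spnb3* and *Spnb4* had differences of 0.30, 0.21 and 0.19. The erythroid alpha chain *Spna1* differed by -0.48, and *Epb4.1*, protein 4.1 of the red cell membrane, by -0.47. These last genes belong to the red cell skeleton. Of the 13 clusters held for an erythroid marker list that includes *Spna1*, all 13 had the higher value at E15. Past 2-fold were 7, beside 24.4% of all clusters toward E15, with differences down to -5.55 for the embryonic globin *Hbb-y*. The part of blood in the differences of *Spna1* and *Epb4.1* was not tested. *Add3*, an adducin that caps barbed ends at the spectrin network, differed by 0.40. *Plec1*, the linker plectin, had a cluster of its own at 0.29 and a cluster shared with predicted loci at 0.89.

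Proteins of adhesion plaques were 5 clusters, and 4 of them were past 2-fold (80%, beside 47.3% of all clusters). The exclusion terms had removed *Vcl* (-0.96), *Parvb* (-0.52), *Tln2* (-0.20), *Parvg* (-0.01) and *Enah* (0.05). These are also known from such plaques and lay below 2-fold. The tensins, proteins of integrin adhesion sites, were both higher in adult: *Tns1* had 1.11 and -1.09, a fold of 4.57, and *Tns4* had 1.03 and -0.80, a fold of 3.58. *Evl*, of the Ena/VASP family that lengthens filaments, had -0.67 in adult and 0.77 at E15, a fold of 2.71. *Fhl3*, a LIM protein of adhesions and the nucleus, had -0.58 and 0.75, a fold of 2.51. *Tln1*, the talin that activates integrins and was measured by 57 probe sets, differed by 0.15.

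The remaining 8 clusters were a guanine nucleotide exchange factor and genes without a role list. Of the 8, 7 had the higher value in adult, as had 1815 of all 3956 clusters. *Grit* (*Arhgap32*), a GTPase-activating protein, had 0.69 in adult and -0.72 at E15, a fold of 2.66. *Ncald*, the calcium sensor neurocalcin delta, had 0.71 and -0.42, a fold of 2.20. Below the threshold were *Hook1*, an adaptor better known for microtubule transport, at 0.92, and *4831426I19Rik* (*Syne3*), the nesprin that binds plectin, at 0.88. RefSeq places *Syne3* beside *Clmn*, with 0 coding genes between them. *Limch1* at 0.47, the exchange factor *Fgd4* at 0.39, *Mib2* at 0.17 and the scaffold *Ppp1r9a* at -0.21 completed the set.

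**Figure D4:**
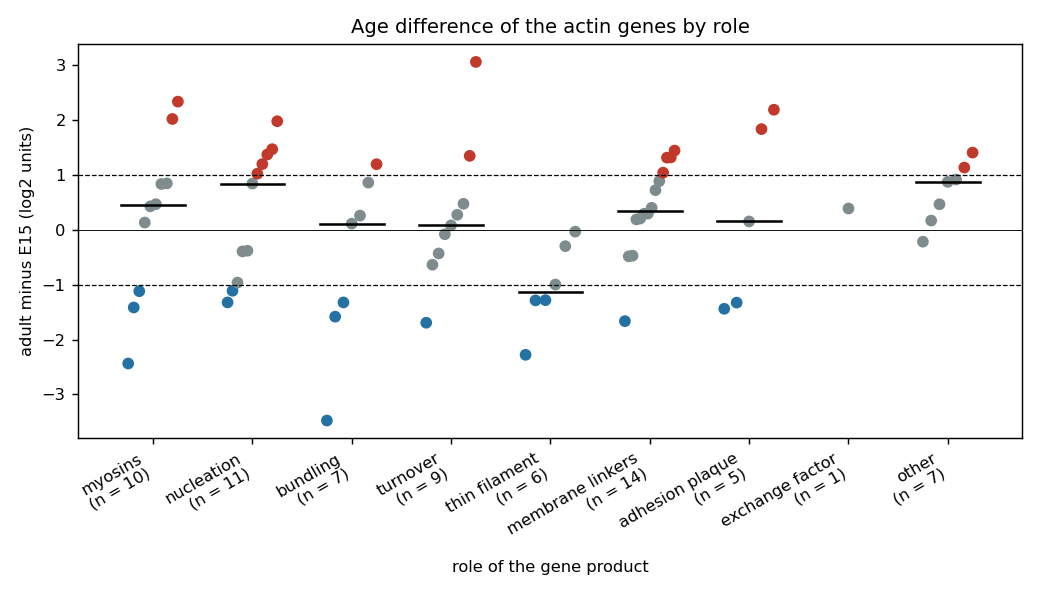
Difference adult minus E15 (log2 units, vertical axis) of each of the 70 clusters by role (horizontal axis, n in brackets); black bars are medians, dashed lines mark 2-fold, red and blue points are past it toward adult and E15. All 6 clusters of the thin filament list lie below 0 as deposited (5 after centring, when Nrap turns), with a median of -1.14. Of the membrane linkers, 11 of 14 lie above 0. Over all 3956 clusters, 2141 lie below 0 and 1815 above.

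Genes that act on the actin cytoskeleton without falling under the rule were looked up in lists of related proteins. No cluster was held for any of the 9 actin genes, so the filament's own subunits were not analysed here. Among 18 myosin light chains and their kinases 2 were held. A cluster shared by *Myl4*, an atrial and embryonic light chain, with *Lin52* and *EG629959* had a fold of 3.19 toward adult. It cannot be assigned to any of these genes, and the paper lists *Lin52* among those enriched in adult. *Mylk3*, a kinase of cardiac light chains, differed by -0.37. Of the 6 kinases and phosphatases of the cytoskeleton held among 26, the neuronal p21-activated kinase *Pak3* was 2.27-fold and the cytokinesis kinase *Cit* 2.37-fold higher at E15. *Limk2*, which inactivates cofilin, lay at 0.99 just under 2-fold toward adult, and *Tesk2*, *Pak2* and *Pkn3* had 0.44, 0.07 and -0.09. For the Arp2/3 complex and WASP family 5 of 23 were held, and *Actr3b*, an Arp3 isoform, had a fold of 2.16 toward adult beside *Wasf3*, while *Nckap1l* and *Cyfip1* had -0.55 and -0.26. The list of the serum response factor pathway held *Vcl* alone, vinculin, at -0.96.

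The 19 clusters removed by the exclusion terms contain well-known actin genes. Of the 19, 5 were at least 2-fold higher in adult (26.3%, beside 22.9% of all clusters) and 3 at E15 (15.8%, beside 24.4%). Toward E15 these were *Ctnna2*, an alpha-catenin of neurons, 7.57-fold, *Anln*, the anillin of the cleavage furrow, 5.39-fold, and *Cit*. Toward adult they included *Dst*, the linker dystonin, 2.71-fold, and *Ctnnal1*, *Myrip* and *Myo7a*, with 2.41-, 2.40- and 2.35-fold. *Myh9*, the heavy chain of nonmuscle myosin IIA, had a difference of -0.68 in the direction of *Myh10*.

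Annotation that the rule did not use was counted over the 70 clusters. The terms given here are a few of those counted and were not picked by a set rule. Actin cytoskeleton organization and biogenesis was given for 14 (20%, against 0.581%), 3 of them past 2-fold toward adult and 6 toward E15. Calmodulin binding was given for 11 (15.7%, against 1.19% of all clusters) and calcium ion binding for 9 (12.9%, against 6.32%). Of the 11 calmodulin binders 1 was past 2-fold toward adult and 3 toward E15. Membrane was given for 10 (14.3%, against 34.6%), 4 of them past 2-fold toward adult and 0 toward E15. Regulation of cell shape was given for 5 (7.14%, against 0.43%), of which 2 were past 2-fold toward E15 and 0 toward adult, beside 24.4% and 22.9% of all clusters. The 63 actin genes of the splicing index table were measured by a median of 21 probe sets, against 13 over that table, from 5 for *Cnn2* to 57 for *Tln1*.

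Several cell types of the plexus carry these families, and markers of them differed between the ages as well. *Prlr*, *Kl* and *Cldn2*, which are known from choroid plexus epithelium, had differences of 7.87, 4.78 and 2.10, and centred values cannot check the tissue label at either age. All 7 clusters held for the 15 epithelial markers had the higher value in adult, 4 of them past 2-fold, of which *Prlr* has 1 cluster of its own and 1 shared with *Agxt2*. All 7 clusters of mesenchyme had the higher value at E15 with 6 past 2-fold, as had all 4 of endothelium with 4 past 2-fold. Of the 5 held for smooth muscle and pericytes 3 were past 2-fold toward E15, among them the pericyte receptor *Pdgfrb* at -1.46, while *Myh11*, itself on that list, differed by 0.84. Leukocyte markers went both ways: 4 of 9 were past 2-fold toward adult, the highest *Cd74* at 3.16, and 2 toward E15, namely *Mrc1* at -2.36 and *Lcp1*. Neuronal markers were past 2-fold toward adult in 5 of 8 clusters and toward E15 in 2, with *Camk2a* at 2.66 and *Dcx* at -2.29. Over all clusters 22.9% were past 2-fold toward adult and 24.4% toward E15. The values are centred, so that none of these lists gives a level. The part of these cell types in the differences of *Fscn1*, *Cnn2*, *Tpm1*, *Tpm4*, *Lcp1*, *Myo16* and the other actin genes was not tested.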

How the data were processed

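RNA of 6 pools of lateral ventricular choroid plexus, 3 at E15 and 3 adult, was amplified and hybridised to exon arrays. The authors normalised the arrays by RMA (robust multichip analysis) with Affymetrix Power Tools, kept the more highly expressed genes, a filter that all 3 replicates had to pass, merged the 3 arrays and deposited log2 values, 1 per age. The gene-level table was filtered at a corrected p of 0.05 by an unpaired test and a fold of 2, and the splicing index table at an index of 0.5 from exon values. The genome build and software versions are not given in the sources used here. The columns of fold change, direction and splicing index are comparisons made by the authors and were not used, nor was the table of clusters common to both. The number of probe sets, a whole number of no other unit, was read as deposited.

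The tables were joined by cluster. Shared clusters had identical values (largest gap 0). Counts past 2-fold and medians were computed for the actin genes and for all clusters. With 0 columns of a single array, no limma fit, replicate block or omission of a replicate could be run, and the number of arrays limits the precision. Symbols were updated through the RefSeq table of assembly GRCm38.p6, in which all 70 clusters matched. Motif searches used the 250 bases before each RefSeq start, and the motifs were chosen after the values were seen. Named genes were every cluster of the rule and every gene of the related lists that had a cluster, except that a few genes and 1 related list are not reported here. *Anln*, *Dst* and the other genes removed by the exclusion terms were named after their values were seen. The gene set, role lists and marker lists were chosen with earlier results of these data known. The search for members was tested on simulated annotation. Alternatives were folds of 1.5 and 4, clusters with 1 symbol, 1 cluster per symbol, annotations not inferred electronically, no exclusion terms, the gene-level table alone, centring of each age on the table median, and omission of marker genes. A count or a fold that changed by more than a factor of 1.5 was taken as moved. Python 3.11.15, numpy 2.4.6, pandas 2.3.3 and matplotlib 3.10.9 were used.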

Additional observations from a re-analysis of the deposited data

How the results depend on the processing

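At a threshold of 4-fold, 4 actin genes were higher in adult and 3 at E15. Without annotations inferred electronically, 38 clusters were found in place of 70. At least 2-fold higher at E15 were 6 of the 38, against 15 of the 70, and in adult 12 of the 38, against 18 of the 70. These are counts from lists of unlike length, and both fell with the shorter list. In the gene-level table alone, which holds no cluster below 2-fold, the median difference was 1.04. The other alternatives moved no count by more than 1.5 times: the count higher in adult ran from 18 to 26 and that higher at E15 from 13 to 18, and the median difference ran from 0.21 to 0.42. Centring each age on the table median added 0.15 to every difference, gave 22 genes higher in adult and 13 at E15 (62.9% toward adult, against 54.5%, beside 57% against 48.3% of all clusters past 2-fold), and turned the direction of 0 genes past 2-fold and of 2 below it. No leave-one-out or test could be run on the tables used here, which hold 1 merged value for each age; the values of single arrays were not analysed here. No paired analysis was possible because the columns carry no replicate number. Signal over background cannot be read from centred values.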
